A study of Mus musculus with 4 samples.

Results

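The 10 genes studied here are expressed by the macrophages that reside in tissues, and they were followed across the 4 arrays of the series. They are Csf1r, Cx3cr1, Mrc1, Cd163, Adgre1, Cd68, C1qa, C1qb, C1qc and Lyz2, and all 10 were found among the 18193 genes measured. They were chosen by name as known macrophage genes, with earlier results of these data known. A gene was read from every probe set annotated with its symbol alone, 15 probe sets in all, and the brightest of them gave its main value. Of the 10 genes, 7 had 1 probe set and 3 had several. On their main probe sets 9 of the 10 were lowest on the array labelled Control replicate 1, at 1.42-fold (Adgre1) to 3.84-fold (C1qc) below the mean of the other 3 arrays for the 8 that read above 100 on every array. The ninth, Cx3cr1, read under 100 on every array, and its second probe set did not place that array lowest. Among those other 3 arrays, the Control and the Rhau KO arrays differed by at most 0.34 log2 units for these 9 genes. Cd163 was the exception and was lowest on the array labelled Control replicate 2.

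Macrophages of the adult heart lie between the cardiomyocytes, where they clear dying cells and debris. Their survival depends on the receptor CSF1R, and they take up ligands through scavenger and mannose receptors such as CD163 and MRC1. They are also a major source of the C1q proteins, which open the classical complement pathway. Since the RNA came from whole tissue, fewer macrophages and less RNA per macrophage cannot be told apart in these values.

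Of the 4 arrays, 2 carry the label Rhau KO and hold RNA of CAAG-ERT2-Cre;Rhau F/F mice, and 2 carry the label Control and hold RNA of Rhau F/F mice without the Cre. All of these adult mice were C57BL/6J, were homozygous for the floxed Rhau allele and received 5 doses of tamoxifen at 2 months of age, and heart RNA was taken 2 months later. The Cre line is named for the CAAG promoter, and which cell types of the heart were recombined, macrophages among them, is not given in the sources used here. Nothing there says either whether each array came from its own mouse, so a p-value here speaks of the spread among samples that may be technical.

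The labels were first held against the targeted gene and the tissue. Dhx36, the gene of RHAU, read 568 and 537 on the arrays labelled Rhau KO and 327 and 194 on those labelled Control, so it was higher where a deletion is labelled, and each value below stands under the label of its array. Tnni3, the cardiac troponin I gene, read 39371 and 37838 on the Rhau KO arrays, 10.3 on Control replicate 1 and 38930 on Control replicate 2. The summed intensity of 10 genes of skeletal muscle was 616 and 363 on the Rhau KO arrays, 427132 on Control replicate 1 and 461 on Control replicate 2, and that of 10 genes of cardiomyocytes was 429645 and 424273, 141991, and 426351. Control replicate 1 went against its tissue label, with 9 of the 10 cardiomyocyte genes at their lowest there and 7 of them at least 2-fold below each other array, while no gene of either list was listed at 0. Control replicate 2 stood apart in another way, since the heat shock gene Hspa1a read 1141 and 582 on the Rhau KO arrays, 631 on Control replicate 1 and 18079 on Control replicate 2. Each comparison of the macrophage genes is accordingly given with all arrays and without Control replicate 1.

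The receptors that tissue macrophages depend on had much the same intensity on 3 of the arrays. Csf1r, the receptor for the growth factors CSF1 and IL-34, read 3161 and 3153 on the Rhau KO arrays, 1664 on Control replicate 1 and 3047 on Control replicate 2. The Rhau KO arrays lay above both Control arrays, but over Control replicate 2 only by a narrow margin. The log2 difference, Rhau KO minus Control, was 0.49 (standard error 0.35, adjusted p = 0.873 from limma), and without Control replicate 1 it was 0.05 (standard error 0.10). The other 2 probe sets of Csf1r gave the same order for Control replicate 1, at 707 and 770 on the Rhau KO arrays, 465 on Control replicate 1 and 787 on Control replicate 2, and at 390 and 464, 253, and 449. On the first of these sets Control replicate 2 lay above both Rhau KO arrays, the reverse of the brightest set. On the second it fell between them.

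Cx3cr1, the receptor for fractalkine that tethers monocytes and macrophages to vessels, was dim throughout. It read 67.6 and 72.8 on the Rhau KO arrays, 18.4 on Control replicate 1 and 89.0 on Control replicate 2, all of them under 100, a level that 51.7% to 54.0% of all probe sets did not reach on an array. Its log2 difference was 0.79 with a wide 95% interval of -1.55 to 3.14. A second probe set of Cx3cr1 read 2.81 and 10.4 on the Rhau KO arrays, 3.55 on Control replicate 1 and 28.2 on Control replicate 2, and there the lowest array was Rhau KO replicate 1. With both probe sets averaged, the log2 difference turned to -0.05, so no direction can be read for this gene.

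Of the 2 endocytic receptors, one followed the common pattern and the other did not. Mrc1, the mannose receptor, read 983 and 847 on the Rhau KO arrays, 466 on Control replicate 1 and 904 on Control replicate 2. The value of Control replicate 2 fell between the Rhau KO arrays, and the log2 difference was 0.49 (standard error 0.39) with all arrays and 0.01 (standard error 0.16) without Control replicate 1. Cd163, the receptor that takes up complexes of hemoglobin and haptoglobin, read 458 and 575 on the Rhau KO arrays, 466 on Control replicate 1 and 259 on Control replicate 2. Here Control replicate 1 lay between the Rhau KO arrays, and Control replicate 2 alone was low. The log2 difference of Cd163 was 0.56 (standard error 0.39, adjusted p = 0.873 from limma) with all arrays and 0.99 (standard error 0.24, adjusted p = 0.175) without Control replicate 1. It was 0.14 without Control replicate 2, so its size depends on which Control array it is set against. The Rhau KO arrays themselves differed by 0.33 log2 units for Cd163, the widest gap between them for any of the 10 genes.

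The 2 surface and vesicle proteins most often used to stain macrophages had the smallest differences. Adgre1, which encodes the F4/80 antigen, read 548 and 458 on the Rhau KO arrays, 368 on Control replicate 1 and 572 on Control replicate 2. Cd68, a glycoprotein of late endosomes and lysosomes, read 264 and 297 on the Rhau KO arrays, 179 on Control replicate 1 and 306 on Control replicate 2. For both genes Control replicate 2 was the highest array and Control replicate 1 the lowest, so the Control arrays enclosed the Rhau KO arrays. The log2 difference was 0.13 (standard error 0.33, adjusted p = 0.943 from limma) for Adgre1 and 0.26 (standard error 0.39, adjusted p = 0.902) for Cd68. Both turned negative without Control replicate 1, at -0.19 for Adgre1 and -0.13 for Cd68.

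The secreted products of macrophages had wider gaps, each of them between Control replicate 1 and the rest, and among the 10 genes only that of the dim Cx3cr1 was wider than that of C1qc. C1qa, C1qb and C1qc encode the 3 chains that assemble into C1q, the recognition molecule of classical complement. C1qa read 1919 and 1762 on the Rhau KO arrays, 611 on Control replicate 1 and 1635 on Control replicate 2. C1qb read 1600 and 1539 on the Rhau KO arrays, 613 on Control replicate 1 and 1631 on Control replicate 2. C1qc read 986 and 1098 on the Rhau KO arrays, 278 on Control replicate 1 and 1119 on Control replicate 2. The 3 chains thus ran in parallel, each at least 2.51-fold lower on Control replicate 1 than on the lowest of the other arrays, and only for C1qa did the Rhau KO arrays lie above both Control arrays. The log2 differences were 0.88 for C1qa (95% interval -0.48 to 2.24), 0.65 for C1qb (-0.71 to 2.01) and 0.90 for C1qc (-0.97 to 2.77), each with an adjusted p = 0.873 from limma. Without Control replicate 1 they were 0.17, -0.06 and -0.10.

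The other 2 probe sets of C1qb carry an annotation suffix for probes that can also bind other transcripts. They read 1080 and 1022 on the Rhau KO arrays, 323 on Control replicate 1 and 920 on Control replicate 2, and 608 and 612, 274, and 516. They placed Control replicate 1 lowest as the brightest one did, but put Control replicate 2 below both Rhau KO arrays.

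**Figure D1:**
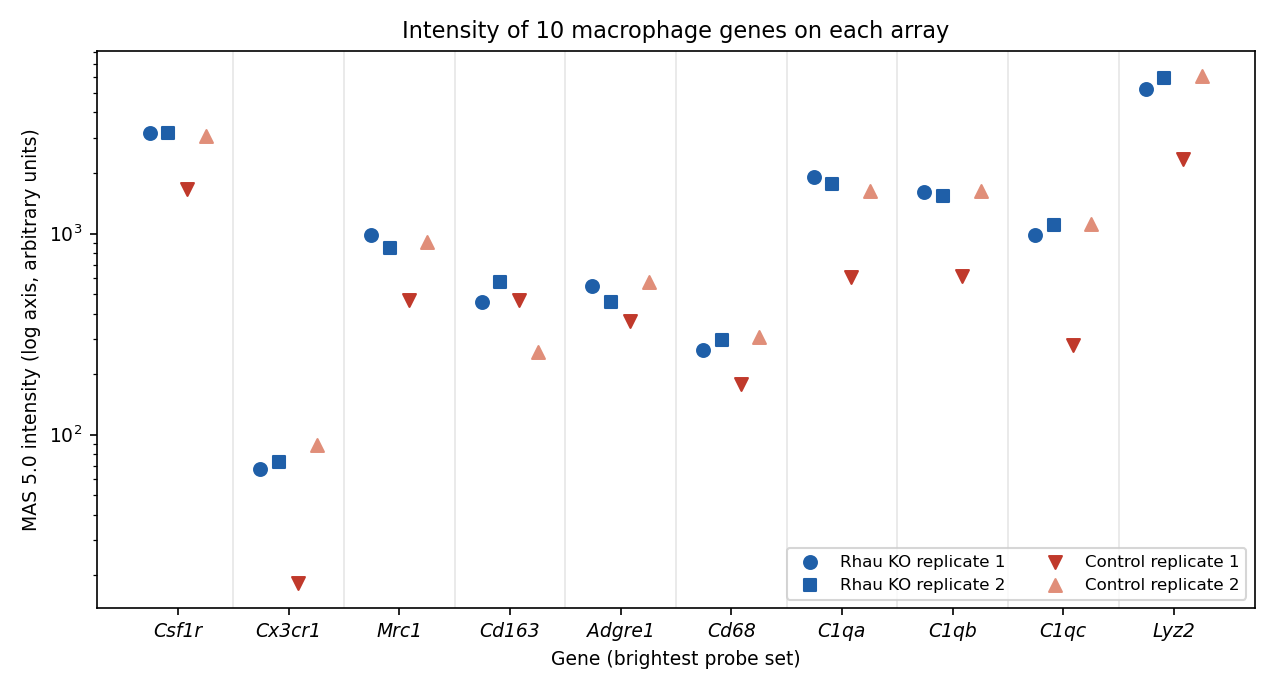
Array intensity (MAS 5.0, arbitrary units on a log axis) of the 10 macrophage genes on their brightest probe sets, with 1 symbol per array, blue for arrays labelled Rhau KO and red shades for arrays labelled Control. The downward triangle of Control replicate 1 lies lowest for 9 of the 10 genes, as for C1qc with 986 and 1098 on the Rhau KO arrays, 278 on Control replicate 1 and 1119 on Control replicate 2, while for Cd163 the upward triangle of Control replicate 2 lies lowest at 259.

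C1qb and C1qc are neighbouring genes with similar profiles across the arrays, and Cd163 had another profile. The 250 bases before the annotated start of each are shown from RefSeq (build GRCm38.p6), 5′ to 3′ on the strand of the gene. Capitals mark GAGGAA or its complement on the other strand, TTCCTC, a form of the sites bound by PU.1, a transcription factor that macrophages require.

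C1qb (chr4:136886201-136886450, minus strand): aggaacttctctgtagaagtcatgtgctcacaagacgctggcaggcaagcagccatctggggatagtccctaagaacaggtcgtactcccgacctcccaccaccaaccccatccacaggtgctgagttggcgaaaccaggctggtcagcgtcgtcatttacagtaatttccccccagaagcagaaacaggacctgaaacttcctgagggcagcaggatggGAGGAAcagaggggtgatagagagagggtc

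C1qc (chr4:136892915-136893164, minus strand): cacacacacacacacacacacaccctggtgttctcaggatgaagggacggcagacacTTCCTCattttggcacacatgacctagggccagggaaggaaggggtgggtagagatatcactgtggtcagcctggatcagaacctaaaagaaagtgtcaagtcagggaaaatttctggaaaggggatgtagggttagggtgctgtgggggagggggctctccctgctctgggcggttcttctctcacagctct

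Cd163 (chr6:124304401-124304650, plus strand): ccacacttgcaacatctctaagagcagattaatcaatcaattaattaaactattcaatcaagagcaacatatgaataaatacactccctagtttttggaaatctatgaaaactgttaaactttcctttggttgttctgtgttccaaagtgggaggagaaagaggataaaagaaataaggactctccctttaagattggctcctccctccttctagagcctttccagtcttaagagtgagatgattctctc

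C1qb held 1 match on the strand of the gene, at positions -30 to -25 relative to its start, and C1qc held 1 match on the other strand, at positions -193 to -188, while Cd163 held 0. Such a window was searched for 7 of the 10 genes, and 4 of the 7 (Cd68, Mrc1, C1qb and C1qc) held at least 1 match. C1qa and Adgre1 had no window in the source, and Csf1r was left out of the search. Lyz2 and Cx3cr1 held 0 as Cd163 did, although their main probe sets were low on Control replicate 1 like those of the C1q genes. The letters are common, being present in 7639 of 32851 windows of this length, or 23.3%. A match is a run of letters and not a measured site, and other forms of the site were not searched.

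Lyz2, the lysozyme of macrophages and other myeloid cells, followed the C1q genes in its profile. It read 5253 and 5907 on the Rhau KO arrays, 2335 on Control replicate 1 and 6065 on Control replicate 2. Control replicate 2 was the highest array here, above both Rhau KO arrays, and the difference in log2 intensity, 0.57 with a standard error of 0.50 (adjusted p = 0.873 from limma), became -0.12 without Control replicate 1. Lyz1 is a close copy of Lyz2 next to it in the genome, and its brightest probe set read 8371 and 8684 on the Rhau KO arrays, 4611 on Control replicate 1 and 9499 on Control replicate 2. That Lyz1 set carries the suffix for probes that can also bind other transcripts, and the Lyz2 set does not. A Lyz1 set without it read 53.1 and 17.8 on the Rhau KO arrays, 6.02 on Control replicate 1 and 42.6 on Control replicate 2. Readings of Lyz1 and Lyz2 may share transcripts and are uncertain as values of a single gene.

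Over the 10 genes the median log2 difference was 0.57, against 0.09 over all 18193 genes, and all 10 had a higher mean log2 intensity on the Rhau KO arrays, as did 56.9% of all genes. No gene of the 10 passed an adjusted p under 0.05, which 0% of all genes passed by limma. At a 2-fold difference with an unadjusted p under 0.05, the thresholds of the study, the p was taken from limma here and below. By this rule 0 of the 10 passed, against 1.65% of all genes in the higher direction and 1.64% in the lower. That is 300 and 299 genes, which became 180 and 171 with the p of the methods' t-test, so calls depend on the test. At an unadjusted p under 0.05 alone, limma called 0 of the 10 and 785 of all genes, and the methods' t-test called 0 of the 10 and 941 of all genes. Both Rhau KO arrays lay above both Control arrays for 2 of the 10, Csf1r and C1qa, as for 21.7% of all genes, and below both for 0, as for 14.6%. With 2 arrays in each group the smallest p of an exact permutation test is 0.333, and the intervals of the fit, which for C1qa reached a log2 difference of 2.24, do not show that the groups were alike.

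Leaving out Control replicate 1 took the median log2 difference of the 10 genes to -0.08, against 0.03 over all genes. Then 4 of the 10, Csf1r, Cd163, Mrc1 and C1qa, had a higher mean on the Rhau KO arrays, as did 52.8% of all genes, and 0 passed an adjusted p under 0.05, as did 0.819% of all genes. Both Rhau KO arrays lay above Control replicate 2 for 3 of the 10 (Csf1r, Cd163 and C1qa) and for 39.6% of all genes, and below it for 6 and for 33.3%. Control replicate 2, with its high heat shock reading, is then the lone Control and is assumed to vary like the others. Leaving out Control replicate 2 instead set the Rhau KO arrays against the array with skeletal muscle transcripts. In that comparison 6 of the 10 (Csf1r, Mrc1, C1qa, C1qb, C1qc and Lyz2) were higher on the Rhau KO arrays at an adjusted p under 0.05, as were 13.5% of all genes, with log2 differences of 0.92 for Csf1r to 1.90 for C1qc. Both Rhau KO arrays lay above Control replicate 1 for 9 of the 10 and for 46.6% of all genes. For the other 9 genes the difference was larger without Control replicate 2 than without Control replicate 1, and for Cd163 it was the other way round.

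**Figure D2:**
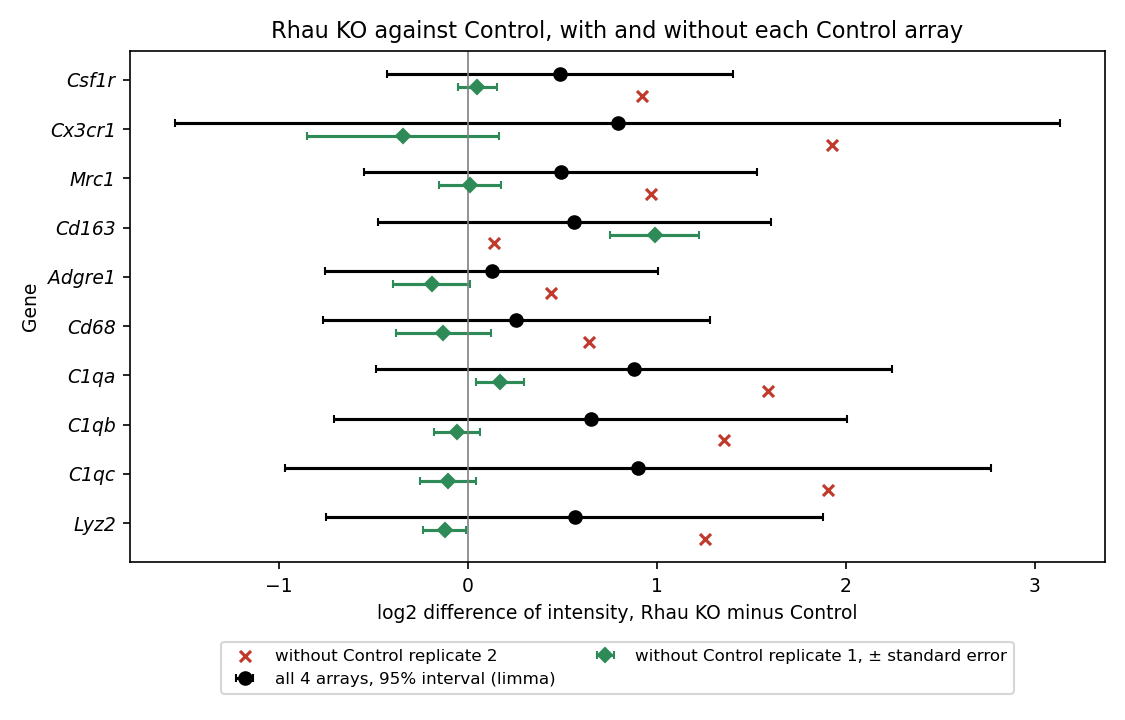
Log2 difference of intensity, Rhau KO minus Control, for the 10 macrophage genes, with circles for all 4 arrays and their 95% intervals, diamonds without Control replicate 1 with standard errors, and crosses without Control replicate 2. Each circle lies above 0 with an interval that spans it, and without Control replicate 1 the values run from -0.34 for Cx3cr1 to 0.99 for Cd163.

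Control replicate 1, shown apart from the rest, was lowest for 9 of the 10 genes, a position it held for 40.0% of all genes and for 46.9% of the 8268 genes with a mean log2 intensity of at least 8. It was at least 2-fold below each of the other 3 arrays for 5 of the 10 (C1qa, C1qb, C1qc, Lyz2 and Cx3cr1), against 11.3% of all genes and 10.4% of those 8268. These shares describe 1 array, so the differences carry no replicate check. The median over the 10 genes was -1.13 log2 units below the mean of the other arrays, against -0.09 over all genes. On the same measure the median of the cardiomyocyte genes was -7.98 and that of the skeletal muscle genes was 10.4.

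Genes that travel with macrophages were examined by lists written from general knowledge, with earlier results of these data known. Of 26 other genes of tissue macrophages, 25 were measured, and 19 had a higher mean on the Rhau KO arrays, with a median log2 difference of 0.26 that became 0.05 without Control replicate 1. None passed the study's thresholds in either direction. The 4 with the smallest p were F13a1 (coagulation factor XIII A chain), Lyve1 (a hyaluronan receptor), Folr2 (a folate receptor) and Stab1 (a scavenger receptor). F13a1 read 1521 and 1712 on the Rhau KO arrays, 758 on Control replicate 1 and 1191 on Control replicate 2. Lyve1 read 1045 and 1155 on the Rhau KO arrays, 373 on Control replicate 1 and 880 on Control replicate 2. Folr2 read 383 and 438 on the Rhau KO arrays, 144 on Control replicate 1 and 335 on Control replicate 2. For these 3 genes both Control arrays lay below both Rhau KO arrays, although Lyve1 is also a gene of lymphatic vessels. Over the whole list the Rhau KO arrays lay above both Control arrays for 5 of 25 genes and below both for 2, which is near the shares of all genes, 21.7% and 14.6%. Their log2 differences without Control replicate 1 were 0.44, 0.32 and 0.29, each with an adjusted p above the threshold. Stab1, at 654 and 591 on the Rhau KO arrays, 179 on Control replicate 1 and 608 on Control replicate 2, did not separate the groups.

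The list was not uniform on Control replicate 1, where 18 of the 25 genes were lowest and the median was -0.70 log2 units. Maf, a transcription factor of macrophages that was named after its values were seen, read 1369 and 968 on the Rhau KO arrays, 11311 on Control replicate 1 and 872 on Control replicate 2. It was high on the array with skeletal muscle transcripts, opposite to the 9 genes above. Whether that reading comes from macrophages was not tested.

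Leukocytes of all kinds share a further set of 10 genes, and 9 of these were lowest on Control replicate 1. Only 1 was at least 2-fold below each other array there, against 5 of the 10 macrophage genes and 11.3% of all genes. Tyrobp and Fcer1g fell just short of that cutoff, at 1.99-fold and 1.97-fold. The medians on Control replicate 1 were close, at -1.07 log2 units for this list and -1.13 for the macrophage genes. Of the 10 leukocyte genes, 9 had a higher mean on the Rhau KO arrays, and 0 passed the study's thresholds. Their median log2 difference of 0.43 became -0.14 without Control replicate 1. Spi1, the gene of PU.1, read 94.7 and 101 on the Rhau KO arrays, 31.5 on Control replicate 1 and 50.9 on Control replicate 2, which differ by 1.29 on the log2 scale (standard error 0.50, adjusted p = 0.873 from limma). Fcer1g, a signalling chain of Fc receptors, read 654 and 582 on the Rhau KO arrays, 295 on Control replicate 1 and 658 on Control replicate 2. Fcer1g thus had the profile of Lyz2, while Spi1, at 101 or less, was low on both Control arrays. Coro1a, an actin-binding protein of leukocytes, had a log2 difference of 0.93, and Rac2, a GTPase of blood cells, was the only one of the 10 with a lower mean on the Rhau KO arrays, at -0.54.

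The ligands of the receptors were then examined. Csf1, the growth factor that binds the CSF1 receptor, read 631 and 640 on the Rhau KO arrays, 262 on Control replicate 1 and 586 on Control replicate 2. Il34, the second ligand of the same receptor, read 94.7 and 130 on the Rhau KO arrays, 109 on Control replicate 1 and 54.9 on Control replicate 2. Csf1 thus had the profile of its receptor gene, with Control replicate 1 low, and Il34, at 130 or less, had that of Cd163. Cx3cl1, which encodes fractalkine, the ligand of CX3CR1, read 190 and 156 on the Rhau KO arrays, 59.4 on Control replicate 1 and 110 on Control replicate 2. The groups did not overlap for Cx3cl1, and its log2 difference was 1.09 (standard error 0.47, adjusted p = 0.873 from limma) with all arrays and 0.65 without Control replicate 1. Hp, which encodes haptoglobin, whose complexes with hemoglobin bind CD163, was the 1 gene of the 6 measured that passed the study's thresholds by limma, in the lower direction. Its readings were low, at 29.4 and 3.19 on the Rhau KO arrays, 129 on Control replicate 1 and 70.0 on Control replicate 2. Without Control replicate 1 the log2 difference of Hp was -2.85, past 2-fold, but the call was lost on the unadjusted p.

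Of 16 listed genes of complement components, receptors and regulators, 11 were measured. Of these, 6 had a higher and 5 a lower mean on the Rhau KO arrays. None passed the study's thresholds. Cd59a, an inhibitor of the complement membrane attack complex, had the smallest p of the list, reading 3009 and 2868 on the Rhau KO arrays, 1751 on Control replicate 1 and 1625 on Control replicate 2. The groups were well apart and the Control arrays close together for this gene, and Cd59a was higher by 0.80 log2 units (SE 0.20) on the Rhau KO arrays with an adjusted p = 0.873 from limma. Without Control replicate 1, Cd59a rose on the Rhau KO arrays by 0.85 log2 units (adjusted p = 0.0473). Itgb2, the beta chain of complement receptor CR3, read 246 and 225 on the Rhau KO arrays, 83.3 on Control replicate 1 and 226 on Control replicate 2, the profile of the macrophage genes. C2, a serine protease precursor, and C3ar1, the receptor for C3a, read no higher than 132 on any array and had lower means on the Rhau KO arrays, at log2 differences of -1.12 and -0.48.

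Genes of dendritic cells and of antigen presentation by MHC class II were examined as well. Of these 10 genes, 8 were lowest on Control replicate 1, but the median on Control replicate 2 lay 0.41 log2 units above the Rhau KO arrays, against 0.08 for the macrophage genes. This difference between lists was not tested. Single genes of the list ran both ways, as Ciita did at -0.71 and Itgax at 1.98. Both of these, like Flt3, read under 100 on every array and give no firm direction. The genes of the list that read above 100 on some array all ran 1 way, from 0.04 for H2-DMa to 0.82 for H2-Ab1. H2-Aa, an MHC class II chain named after its values were seen, read 6681 and 3440 on the Rhau KO arrays, 2209 on Control replicate 1 and 7821 on Control replicate 2. Rhau KO replicate 2 was thus low for H2-Aa in a way that it was not for Csf1r or C1qa. By the smallest p of the list, Itgax (an integrin of dendritic cells), Ciita (the activator of MHC class II genes), Cd209a (a lectin of dendritic cells) and Flt3 (a growth factor receptor) had log2 differences of -1.59, 0.82, -0.70 and 1.18, and 0 of the 10 genes passed the study's thresholds.

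For genes of recruited monocytes, 6 of 10 were measured and the median log2 difference was 0.04, with 3 genes higher and 3 lower. Ccr2, the chemokine receptor that marks monocytes entering the heart, read 98.5 and 36.8 on the Rhau KO arrays, 48.9 on Control replicate 1 and 50.2 on Control replicate 2, so that the dim readings overlapped. Chil3 was dim too, with a log2 difference of -1.90, and Vcan, a proteoglycan, had one of 0.48. Nr4a1, a transcription factor of patrolling monocytes that many other cells induce, was the 1 gene past the study's thresholds by limma, in the lower direction. It read 3182 and 2046 on the Rhau KO arrays, 6912 on Control replicate 1 and 4045 on Control replicate 2. Without Control replicate 1 its log2 difference was -0.66 (adjusted p = 0.353), under the 2-fold threshold, so the call rested on that array.

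Vessel genes were included as another cell type of the interstitium. All 6 endothelial genes were lowest on Control replicate 1, with a median of -1.37 log2 units, which is near the -1.13 of the macrophage genes. Kdr, a receptor for VEGF, read 2689 and 2053 on the Rhau KO arrays, 389 on Control replicate 1 and 1608 on Control replicate 2, and Emcn, a sialomucin of capillaries, read 2362 and 2331, 692, and 2582. Tek and Tie1, receptors of the angiopoietin system, had log2 differences of 0.46 and 0.78. Fibroblast genes did not share this pattern, since 4 of 8 were lowest there and the median was -0.16. The low macrophage readings of Control replicate 1 thus stood beside low endothelial readings, and the part of the muscle and endothelial readings in them was not tested.

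**Figure D3:**
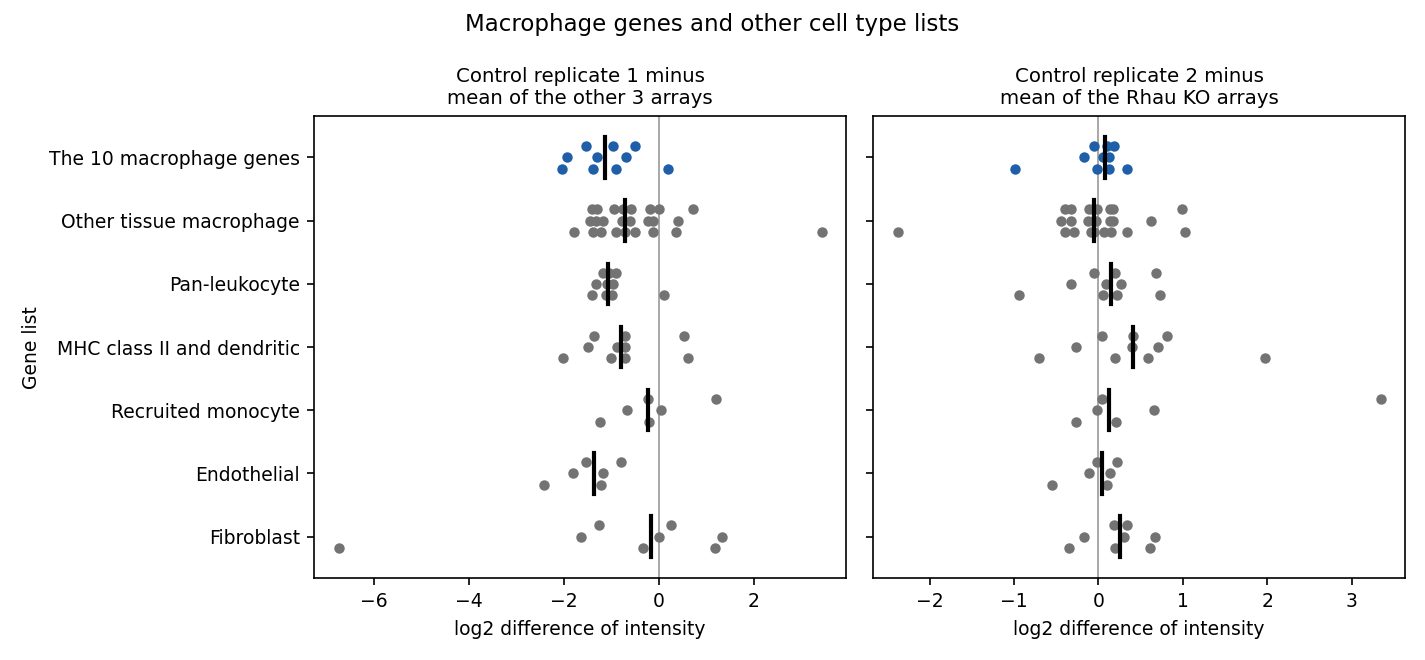
Log2 difference of intensity for each measured gene of 7 lists, on the left Control replicate 1 minus the mean of the other 3 arrays and on the right Control replicate 2 minus the mean of the Rhau KO arrays, with 1 point per gene and a black bar at the median of each list. On the left the medians of the macrophage, pan-leukocyte and endothelial lists are -1.13, -1.07 and -1.37, and on the right those of the macrophage and MHC class II lists are 0.08 and 0.41.

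The genes whose profile over the 4 arrays was most like that of the 10 were sought among 8259 genes with a mean log2 intensity of at least 8, by the root mean square distance between centred log2 values. The median profile of the 10 genes lay at 0.29 and 0.33 on the Rhau KO arrays, -0.85 on Control replicate 1 and 0.26 on Control replicate 2. The nearest were Scn7a (an atypical sodium channel), Mrpl39 (a mitochondrial ribosomal protein), Odf2 (a centrosomal protein), Arhgap29 and Prdx2 (a peroxiredoxin), at distances of 0.014 to 0.032 log2 units. Among the 10 themselves the distances ran from 0.104 for Csf1r, the most typical, to 0.701 for Cd163, the least. The 5 neighbours held no other gene named here as a macrophage or leukocyte gene.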

How the data were processed

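Total RNA was labelled with the 3′ IVT Express kit and hybridised to Affymetrix GeneChip mouse arrays, 2 labelled Rhau KO and 2 labelled Control. The intensities the authors deposited are linear and were normalized by MAS 5.0 (GeneSpring 11.0), and their trimmed mean, with 2% left out at each end, came to 500.0 on all 4 arrays. Detection calls and scan dates were not used here, and the number of arrays limits the precision.

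Of 45101 probe sets, 34945 that were no controls carried 1 gene symbol, and the brightest by mean log2 intensity stood for each of 18193 genes. Log2 intensities, with no filter and no pseudocount, were compared in R 4.3.3 with limma 3.58.1 (lmFit, then eBayes with an intensity trend), Rhau KO minus Control, with Benjamini-Hochberg adjustment over all genes. The fit was tested on simulated arrays with independent noise of the same spread on every array. None was simulated with transcripts of another tissue, so that test does not cover an array like Control replicate 1. Alternatives were no trend, quantile normalization, median centring, the methods' t-test, a replicate block, every probe set singly, the average over a gene's probe sets, only the brighter genes, a pseudocount of 32 and the omission of each array in turn. Lists held other macrophage, pan-leukocyte, monocyte, dendritic, neutrophil, lymphocyte, complement, ligand, endothelial, fibroblast, cardiomyocyte and skeletal muscle genes, and of each the 4 genes with the smallest p were named at most, with the 5 nearest profiles. A list gene on no probe set with 1 symbol was not analysed here. The 10 genes and the lists were chosen with earlier results of these data known. Sequences came from RefSeq promoter windows. Python 3.11.15, numpy 2.4.6, pandas 2.3.3 and matplotlib 3.10.9 were used.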

Additional observations from a re-analysis of the deposited data

How the results depend on the processing

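With all 4 arrays, the 10 genes kept a higher mean on the Rhau KO arrays and an adjusted p above 0.05 under several alternatives. These were no trend, quantile normalization, median centring, a pseudocount of 32 and the methods' t-test. With every probe set fitted singly, only the brightest set of each gene was read, so its log2 difference could not change. The second probe set of Cx3cr1 had a log2 difference of -0.89. With the mean of all probe sets Cx3cr1 reversed to -0.048, and among the brighter genes alone the 9 measured were higher. With median centring, which took the median log2 difference of all genes to -0.01 from 0.09, Adgre1 stood at 0.03, and the arrays of the groups did not overlap for 1 gene instead of 2. Deviations of same-numbered arrays correlated at 0.006 over genes. The Control deviations hold the skeletal muscle transcripts of Control replicate 1, so this value cannot show whether replicate numbers pair the samples. With the replicate block 10 of 10 were higher (adjusted p = 0.969 to 0.989 from limma). Leaving out each array in turn, the number higher ranged between 4 (without Control replicate 1) and 10, the number past the study's thresholds between 0 and 5, the number past an adjusted p under 0.05 between 0 and 6 (both highest without Control replicate 2) and the number without overlap, in either direction, between 3 and 9, where 3 arrays make this common. Over the same fits the log2 difference lay between -0.13 and 0.64 for Cd68, -0.19 and 0.44 for Adgre1, -0.056 and 1.36 for C1qb, -0.10 and 1.90 for C1qc, -0.12 and 1.25 for Lyz2, and -0.34 and 1.93 for Cx3cr1, with the lowest value of each without Control replicate 1 and the highest without Control replicate 2. Adgre1 was also at -0.002 without Rhau KO replicate 1. The cause of these changes was not tested. Readings under 100, as for Cx3cr1, give no firm direction.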

Other observations

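Genes of other blood cells were near the dim end of the arrays. All 10 measured genes of lymphocytes and NK cells read under 100 on every array. Among them were Cd3g and Cd3d, which encode CD3 chains of the T cell receptor complex. Cd3g read 40.6 and 46.4 on the Rhau KO arrays, 5.24 on Control replicate 1 and 6.19 on Control replicate 2. Cd3d read 6.62 and 2.45, 34.1, and 23.4. These chains of the same receptor complex passed the study's thresholds by limma in opposite directions, Cd3g higher and Cd3d lower on the Rhau KO arrays. Without Control replicate 1 the call of Cd3d was lost, at a log2 difference of -2.54. Ncr1 and Cd79b had log2 differences of 2.00 and 1.14. Of 8 measured neutrophil genes, 5 read under 100 on every array, 4 had a higher and 4 a lower mean on the Rhau KO arrays, and 0 passed the study's thresholds. The 4 with the smallest p, Elane, Cxcr2, S100a8 and S100a9, had log2 differences of -2.13, -1.80, 0.79 and 0.88.

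Fibroblast genes split on Control replicate 1. Col1a2, a chain of type I collagen, read 4456 and 3748 on the Rhau KO arrays, 11014 on Control replicate 1 and 5037 on Control replicate 2, while Tcf21, a transcription factor of cardiac fibroblasts, read 421 and 700, 4.90, and 482. Col1a1 and Dcn, which encodes the proteoglycan decorin, had log2 differences of -0.73 and -0.26, and 0 of the 8 fibroblast genes passed the study's thresholds.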
